A study of Mus musculus with 7 samples.

Results

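The T cell receptor signalling components described here are 42 genes chosen by name for their place in the pathway. Each was represented by the probe set that names only that gene and has the highest mean log2 value over the 7 arrays. Of the 42, 41 had such a probe set and all 41 passed the filter on dim genes, out of 11460 genes tested in all; Lck is not analysed here. By role, 26 tested members are activators, 12 are negative regulators and 3 (Cd6, Ptprc and Themis) are counted in neither class because both kinds of role are known for them. All mice were male and 3 weeks old. CD4+ T cells were taken from their peripheral lymph nodes by magnetic depletion of cells with the B cell marker B220, CD8, the myeloid markers CD11b and CD11c, or NK1.1, followed by a flow sort on CD3 and CD4, and their RNA was hybridised to Affymetrix arrays. Sf.Il2-/- mice, which carry the scurfy allele of Foxp3 (B6.Cg-Foxp3sf/J) together with a null allele of Il2 (B6.129P2-Il2tm1Hor/J), gave 3 arrays. Scurfy (Sf) mice, which carry the scurfy allele alone and so share it with Sf.Il2-/- mice, gave 3 arrays. B6 mice (C57BL/6), the wild type, gave 1 array made from the pooled lymph nodes of 2 mice, so no spread among B6 samples was measured. Both alleles are carried by the whole animal, and every array is a bulk measurement, in which fewer cells of a type and less RNA per cell cannot be told apart.

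The T cell receptor binds peptide held by MHC molecules and has no enzyme of its own. Its CD3 and zeta chains carry tyrosines that Src family kinases phosphorylate, Zap70 binds there and phosphorylates the adaptors Lat and Slp76 (the product of Lcp2), and phospholipase C gamma, Ras activators and Vav proteins assemble on them. Calcium then acts through calcineurin on NFAT factors, and diacylglycerol acts through protein kinase C theta and the Bcl10 and Malt1 complex on NF-kappaB. Csk, phosphatases, Cbl ubiquitin ligases and diacylglycerol kinases restrain these steps.

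The promoter windows below are printed because they belong to the receptor chains that lie together on chromosome 9, to the zeta chain gene, and to Tec, 1 of the 2 members that passed the test below. They are RefSeq windows on build GRCm38.p6, from 250 bases before to 50 after the annotated start, written 5′ to 3′ along the gene. Capitals mark GGAAGT, a sequence bound by ETS factors, on either strand.
Tec, chr5:72868399-72868698, minus strand: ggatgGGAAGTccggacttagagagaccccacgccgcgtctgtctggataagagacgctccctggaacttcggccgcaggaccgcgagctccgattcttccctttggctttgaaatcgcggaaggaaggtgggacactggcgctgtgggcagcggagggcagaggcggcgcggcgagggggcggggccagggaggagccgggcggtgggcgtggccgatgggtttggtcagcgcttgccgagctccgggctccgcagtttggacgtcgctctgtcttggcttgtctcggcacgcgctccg
Cd247, chr1:165788431-165788730, plus strand: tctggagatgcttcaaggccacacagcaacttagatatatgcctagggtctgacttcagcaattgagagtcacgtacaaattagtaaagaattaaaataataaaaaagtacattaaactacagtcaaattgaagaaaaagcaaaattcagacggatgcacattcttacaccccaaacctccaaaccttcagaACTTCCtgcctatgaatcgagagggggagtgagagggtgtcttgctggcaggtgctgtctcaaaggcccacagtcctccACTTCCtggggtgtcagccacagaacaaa
Cd3d, chr9:44981536-44981835, plus strand: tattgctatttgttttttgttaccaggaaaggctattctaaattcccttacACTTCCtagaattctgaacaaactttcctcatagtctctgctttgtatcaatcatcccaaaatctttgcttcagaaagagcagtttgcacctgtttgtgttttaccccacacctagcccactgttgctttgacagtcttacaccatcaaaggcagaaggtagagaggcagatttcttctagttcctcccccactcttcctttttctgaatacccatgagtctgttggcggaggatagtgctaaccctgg
Cd3g, chr9:44980382-44980681, minus strand: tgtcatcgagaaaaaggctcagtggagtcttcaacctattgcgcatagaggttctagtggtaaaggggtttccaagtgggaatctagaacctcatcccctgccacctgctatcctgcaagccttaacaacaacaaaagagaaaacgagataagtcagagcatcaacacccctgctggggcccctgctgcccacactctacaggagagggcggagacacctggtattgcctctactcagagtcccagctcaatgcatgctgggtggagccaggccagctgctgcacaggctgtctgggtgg
Cd3e, chr9:45009562-45009861, minus strand: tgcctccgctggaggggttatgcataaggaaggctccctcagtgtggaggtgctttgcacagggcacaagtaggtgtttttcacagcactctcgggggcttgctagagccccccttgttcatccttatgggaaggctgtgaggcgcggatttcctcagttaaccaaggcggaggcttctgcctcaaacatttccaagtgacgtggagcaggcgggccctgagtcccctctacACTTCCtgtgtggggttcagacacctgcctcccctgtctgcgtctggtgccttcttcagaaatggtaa
The starts of Cd3g and Cd3d point away from each other and lie 1355 bases apart. Of the 42 members 34 matched a window by symbol, some with several starts. GGAAGT stood in 22 of their 52 windows (42.3%), against 23.8% of all 32851 windows of this length. TGTGGT, bound by RUNX factors, stood in 11.5% of member windows and in 16.8% of all, and GGAAAA, bound by NFAT factors, in 19.2% and 23.4%, with both strands searched and no overlap between the motifs in member windows. These shares describe letters in the windows only, and neither TGTGGT nor GGAAAA occurs in the windows printed.

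Median intensity per array lay between 29.3 and 32.4. Il2ra, the interleukin-2 receptor alpha chain, read 3.10, 4.29 and 4.11 in Sf.Il2-/-, 7.79, 7.55 and 8.36 in Sf and 6.92 in B6 (log2 of intensity + 1, the scale of all values here). Foxp3 read 4.41, 4.20 and 4.24 in Sf.Il2-/-, 6.04, 5.87 and 6.32 in Sf and 7.25 in B6. Il2 itself read 7.17, 8.20 and 7.74 in Sf.Il2-/-, 5.39, 5.09 and 7.35 in Sf and 5.22 in B6. The position of its probes in the gene is not given in the sources used here, so this value checks nothing about the null allele. The defining markers of the sort were bright in every array, with Cd3e between 9.47 and 10.69 and Cd4 between 9.44 and 11.27. Of other cell types, the B cell markers Cd79a, Ms4a1 and Pax5 stayed between 3.53 and 6.06, while Ighm, the mu heavy chain gene, read 9.69 to 11.53 and made up most of the summed intensity of the 5 B cell markers, 1906 to 2158 in Sf.Il2-/- arrays, 961 to 1760 in Sf arrays and 3057 in B6. The 4 natural killer markers summed to 1043 to 1738 in Sf.Il2-/- arrays, 562 to 1038 in Sf arrays and 290 in B6, with Ncr1 under 5 in every array. The 2 CD8 T cell markers summed to 151 to 201 in Sf.Il2-/- arrays, 146 to 201 in Sf arrays and 312 in B6. The 8 macrophage and dendritic cell markers summed to 456 to 1021 in Sf.Il2-/- arrays, 525 to 823 in Sf arrays and 793 in B6, mostly from Csf1r at 8.36 to 9.49, with 3 of them under 5 in every array. The 4 plasma cell markers summed to 199 to 267 in Sf.Il2-/- arrays, 192 to 366 in Sf arrays and 135 in B6. The neutrophil transcripts S100a8 and S100a9 were high in Sf.Il2-/- 2 (7.63 and 7.09) and Sf 1 (6.37 and 5.72), against 1.34 to 4.10 in the other arrays. The summed intensity of the 4 neutrophil markers with a probe set was 129 to 515 in Sf.Il2-/- arrays, 130 to 283 in Sf arrays and 156 in B6. The part of these transcripts in the results was not tested, and the counts of members past the adjusted threshold were repeated without the 2 arrays high in S100a8. Sf 3 stood apart from Sf 1 and Sf 2 for most genes, being the highest of the 3 Sf arrays for 68.0% of all genes tested, so each count of members past the adjusted threshold is given with and without it. The sign counts below, 39, 36 and 28 of 41, were 40, 36 and 28 without it, and the counts of unadjusted p and of arrays above or below one another were made with all 7 arrays alone. For 30 of 41 members, and 38.1% of all genes, B6 was highest, Sf 3 next and the other Sf arrays below both. Of the 2255 tested genes with mean log2 of at least 9, 62.1% had this order. Sf 3 was the highest Sf array for 87.9% of these bright genes and for 35 of 41 members. The upper quartile of intensity was 130 to 145 in B6 and both arrays numbered 3 and 110 to 116 in the other 4. The labels name no batch, and the part of this difference in the results was not tested.

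**Figure D1:**
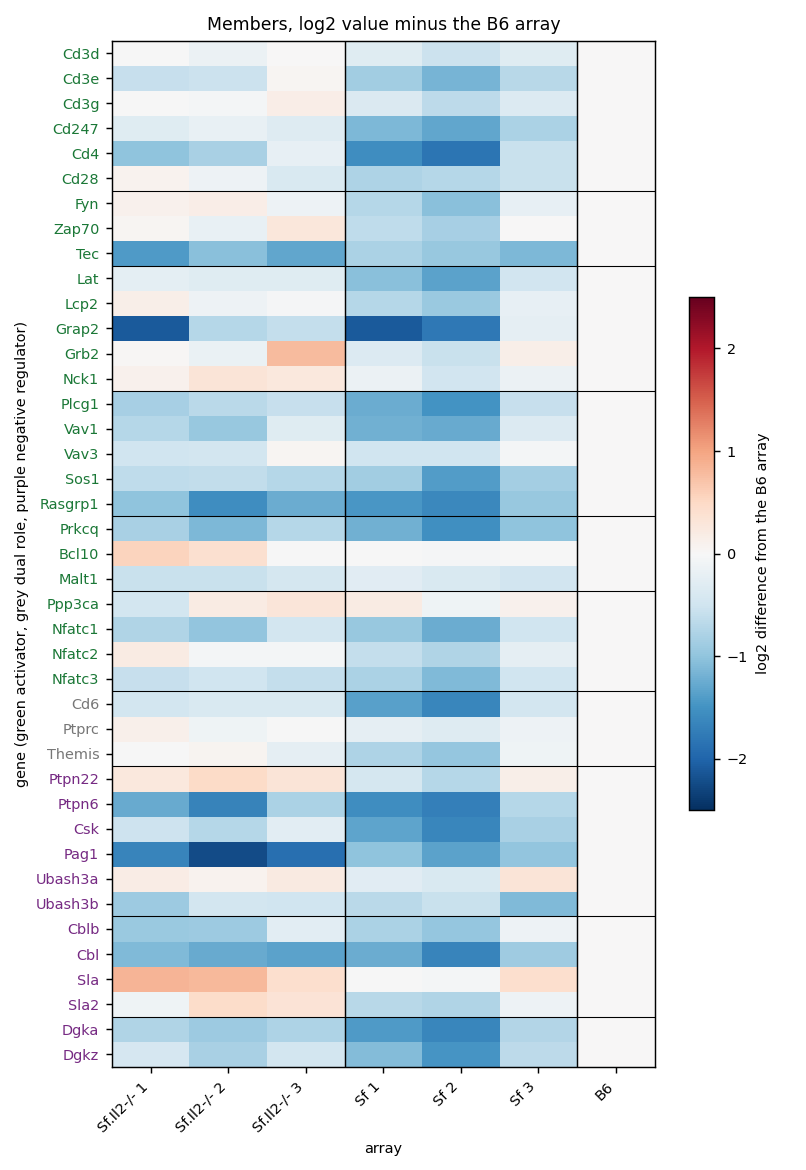
Log2 value of each of the 41 members minus its value in the B6 array, by array (columns, B6 at 0 by construction), with rows grouped by role and gene names coloured by class. Many rows are bluest in Sf 1 and Sf 2, with Sf 3 nearer to B6, while Pag1 and Tec are bluest in Sf.Il2-/-.

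Sf was set against B6 to see how the pathway's transcripts differ in Foxp3-mutant cells. No member passed the test, 0 of 41, while 2.47% of all genes did (limma with Benjamini-Hochberg adjustment over all genes, adjusted p under 0.05), and 22 of 41 members had an unadjusted p under 0.05, against 22.5% of all genes. The fitted difference was below 0 for 39 of 41 members, with a median of -0.78 on the log2 scale, against -0.25 over all genes and -0.53 over the 2255 tested genes of like brightness (mean log2 of at least 9, where 29 of the members lie). The medians of all genes and of the genes of like brightness lay below 0 too, so most genes share that sign. All 3 Sf arrays lay below B6 for 35 of 41 members, against 46.9% of all genes and 69.6% of genes of like brightness. All 3 lay above it for none of the members, against 19.6% of all genes and 9.31% of genes of like brightness. Of the genes of like brightness, 41.6% had an unadjusted p under 0.05. Without Sf 3, 26 of 41 members passed, all lower in Sf, against 30.0% of all genes in either direction. Lower were 23.9% of all genes and 53.0% of genes of like brightness. With the replicate numbers as a block 16 of 41 passed, all lower, against 16.4% of all genes in either direction. Lower in that fit were 12.1% of all genes and 17.6% of genes of like brightness. The B6 array carries number 1 in it and is set mainly against the mutant arrays of that number.

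Sf.Il2-/- was set against Sf to see which transcripts depend on interleukin-2 when Foxp3 is mutant. Again no member passed, 0 of 41, and 0.279% of all genes did. An unadjusted p under 0.05 was found for 18 of 41 members, against 7.92% of all genes and 18.9% of genes of like brightness. The difference was above 0 for 36 of 41 members, with a median of 0.40, against 0.08 over all genes and 0.28 over the genes of like brightness. Most genes of both these sets thus also had a difference above 0. All Sf.Il2-/- arrays lay above all Sf arrays for 16 of 41 members, against 8.39% of all genes and 22.2% of genes of like brightness. All lay below for 1 of 41, Pag1, against 3.72% of all genes and 1.02% of genes of like brightness. Without Sf 3, 17 of 41 members passed, all higher in Sf.Il2-/-, against 7.43% of all genes in either direction. Higher were 5.73% of all genes and 21.7% of genes of like brightness. The replicate block gave none of the members, against 0.524% of all genes.

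The comparison of Sf.Il2-/- with B6 has the B6 array in common with the first comparison. In it 2 of 41 members passed, Pag1 and Tec, both lower, against 2.69% of all genes past the threshold in either direction and 1.2% of all genes lower. An unadjusted p under 0.05 was found for 8 of 41 members, 18.6% of all genes and 22.5% of genes of like brightness. The difference was below 0 for 28 of 41 members, with a median of -0.35, against -0.14 over all genes and -0.23 over the genes of like brightness. Most genes of both these sets thus also had a difference below 0. All 3 Sf.Il2-/- arrays lay below B6 for 22 of 41 members, against 44.5% of all genes and 56.7% of genes of like brightness. All 3 lay above it for 4 of 41 (Nck1, Ptpn22, Ubash3a and Sla), against 24.7% and 20.7%. Without Sf 3, 8 of 41 members passed, all lower, against 13.1% of all genes in either direction. Lower were 8.55% of all genes and 14.4% of genes of like brightness. Sf 3 enters this comparison only through the estimate of the spread and the filter, with 11737 genes tested without it and 11460 with it. With the replicate block 5 of 41 passed, all lower (Pag1, Tec, Grap2, Ptpn6 and Rasgrp1), against 10.6% of all genes in either direction and 7.57% lower. Without the 2 arrays high in S100a8 no member passed in any comparison, against 0.421% of all genes in Sf.Il2-/- v Sf, 2.47% in Sf v B6 and 2.52% in Sf.Il2-/- v B6. In the last, this left Pag1 at -1.76 (limma adjusted p = 0.0546) and Tec at -1.36 (limma adjusted p = 0.122). Without both mutant arrays numbered 3, a choice made after seeing the data, 14 of 41 members passed in Sf.Il2-/- v Sf, 29 in Sf v B6 and 13 in Sf.Il2-/- v B6, against 4.8%, 45.5% and 28.8% of all genes. Among genes of like brightness these shares were 9.67%, 61.6% and 28.9%.

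**Figure D2:**
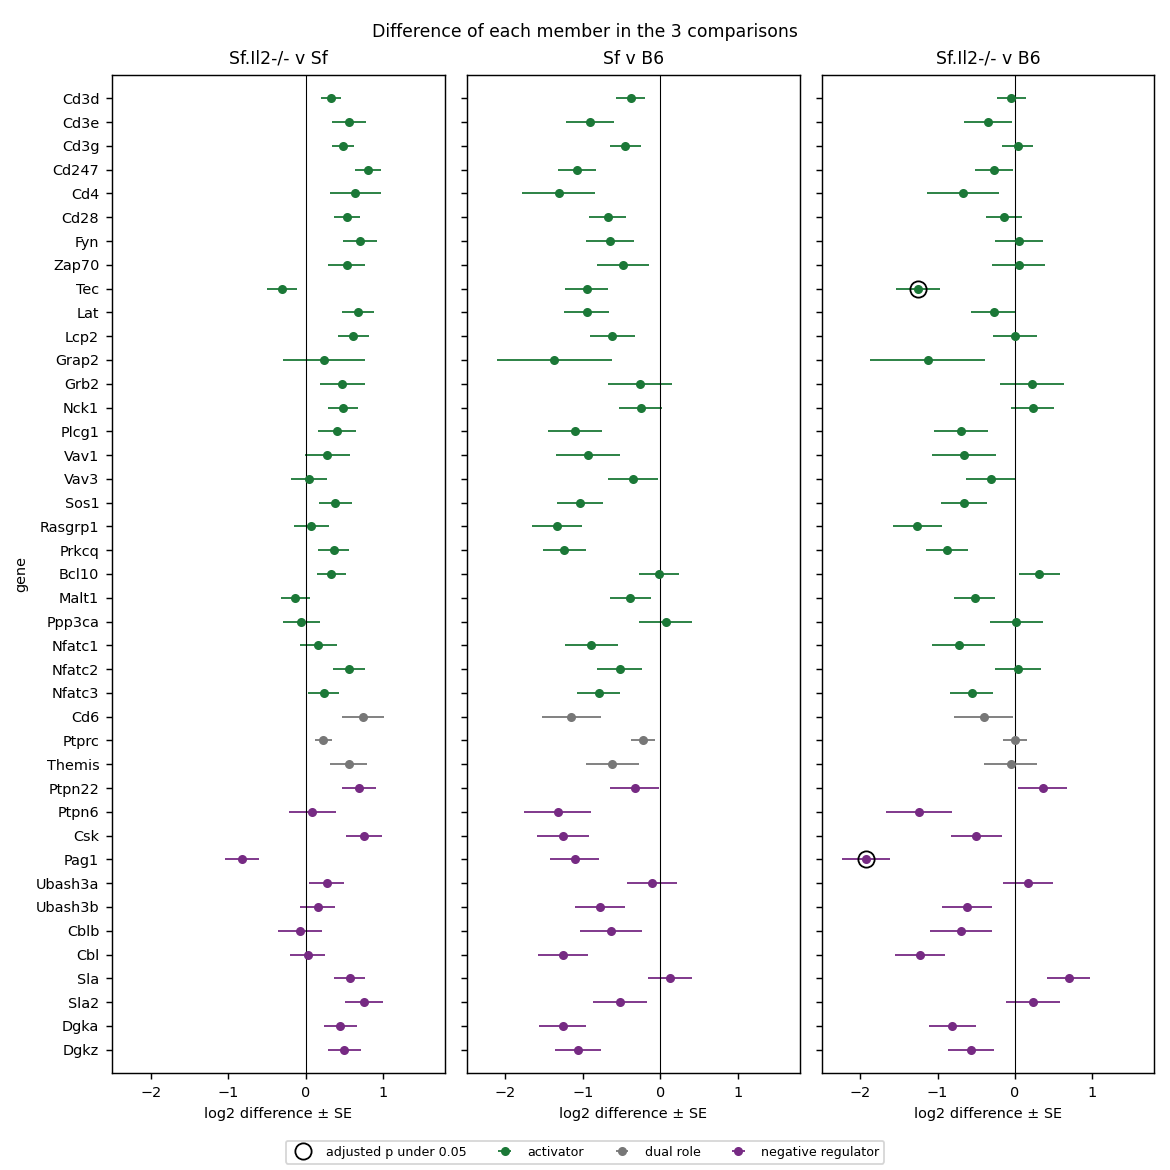
Log2 difference of each member in the 3 comparisons (points, with bars of 1 SE from the limma fit), coloured by class, with rings on differences past an adjusted p of 0.05. Only Pag1 and Tec in Sf.Il2-/- v B6 have a ring. Points lie mostly left of 0 in Sf v B6 and mostly right of 0 in Sf.Il2-/- v Sf.

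Among the receptor chains, Cd247 encodes the zeta chain, which carries most of the receptor's signalling motifs. It read 10.96, 11.07 and 10.94 in Sf.Il2-/-, 10.13, 9.96 and 10.46 in Sf and 11.26 in B6. The 3 groups did not overlap, with Sf lowest and Sf.Il2-/- just under B6. In Sf v B6 it differed by -1.07 ± 0.24 (SE on the log2 scale, n = 3 and 1; limma adjusted p = 0.0547) and in Sf.Il2-/- v Sf 0.81 ± 0.17 (n = 3 and 3; limma adjusted p = 0.158), the lowest adjusted p of any member in the second comparison. Without Sf 3 both passed, at -1.21 (limma adjusted p = 0.00355) and 0.95 (limma adjusted p = 0.00984). The next brightest of its 4 probe sets gave -0.61 and 0.70 in these comparisons, and neither passed (limma adjusted p = 0.281 and 0.47).

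The CD3 genes, whose windows on chromosome 9 are printed above, encode the delta, gamma and epsilon chains that pair with the antigen-binding chains. Cd3g read 11.68, 11.63 and 11.85 in Sf.Il2-/-, 11.34, 11.04 and 11.34 in Sf and 11.69 in B6. Cd3d read 11.73, 11.60 and 11.75 in Sf.Il2-/-, 11.44, 11.20 and 11.44 in Sf and 11.74 in B6. Cd3e read 10.06, 10.10 and 10.69 in Sf.Il2-/-, 9.76, 9.47 and 9.93 in Sf and 10.63 in B6. In all 3 genes every Sf array was below every Sf.Il2-/- array and below B6, with Sf 2 the lowest. The differences in Sf v B6 were -0.45 for Cd3g, -0.38 for Cd3d and -0.91 for Cd3e, and in Sf.Il2-/- v Sf 0.49, 0.33 and 0.56, with none past the threshold.

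Cd4 encodes the co-receptor that brings Lck to MHC class II contacts, and Cd28 the main costimulatory receptor. Cd4 read 10.26, 10.46 and 11.07 in Sf.Il2-/-, 9.72, 9.44 and 10.71 in Sf and 11.27 in B6. Its groups overlapped, since Sf 3 read above 2 of the Sf.Il2-/- arrays, and its difference in Sf v B6 was -1.31 ± 0.47 with Sf 3 (limma adjusted p = 0.148) and -1.69 without it (limma adjusted p = 0.00673). Cd28 read 11.38, 11.16 and 10.90 in Sf.Il2-/-, 10.53, 10.57 and 10.74 in Sf and 11.29 in B6. In Cd28 the Sf arrays lay close together, below all others, at 0.54 ± 0.17 in Sf.Il2-/- v Sf (limma adjusted p = 0.425).

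Of the kinases, Tec is the founding member of the family that phosphorylates phospholipase C gamma. It read 6.16, 6.54 and 6.28 in Sf.Il2-/-, 6.80, 6.64 and 6.46 in Sf and 7.58 in B6. All 6 mutant arrays lay below B6, and the mutant groups overlapped. Tec fell by 1.26 ± 0.28 in Sf.Il2-/- v B6 (log2, SE, n = 3 and 1; limma adjusted p = 0.0499), a 2.39-fold difference, and its difference in Sf v B6 was -0.95 ± 0.28 (limma adjusted p = 0.103). The call stands at the threshold and was lost when any mutant array other than Sf 3 was left out. The limma adjusted p was 0.0972 without Sf 1, 0.065 without Sf 2, and 0.152, 0.0842 and 0.0928 without Sf.Il2-/- 1, 2 and 3. It was 0.0121 without Sf 3, and the B6 array could not be left out. Tec has a single probe set that names only this gene, and with adjustment over all probe sets in place of genes its adjusted p was 0.0631.

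Fyn, a Src family kinase, read 11.14, 11.19 and 10.90 in Sf.Il2-/-, 10.32, 9.98 and 10.82 in Sf and 11.03 in B6. Zap70, the kinase that binds the phosphorylated receptor chains, read 10.63, 10.39 and 10.87 in Sf.Il2-/-, 9.95, 9.76 and 10.60 in Sf and 10.59 in B6. In both genes Sf 1 and Sf 2 were low while Sf 3 was close to B6. The differences in Sf.Il2-/- v B6 were 0.05 for each of them, with a SE of 0.31 for Fyn and 0.34 for Zap70, and in Sf v B6 they were -0.65 and -0.48, none past the threshold.

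Of the adaptors, Lat, the membrane scaffold that Zap70 phosphorylates, read 11.37, 11.30 and 11.31 in Sf.Il2-/-, 10.57, 10.27 and 11.12 in Sf and 11.60 in B6. Lcp2, which encodes Slp76, read 11.32, 11.05 and 11.13 in Sf.Il2-/-, 10.45, 10.23 and 10.96 in Sf and 11.17 in B6. Every Sf.Il2-/- array was above every Sf array in both genes, at 0.67 ± 0.21 for Lat and 0.62 ± 0.20 for Lcp2 (limma adjusted p = 0.424 and 0.43), and without Sf 3 at 0.91 and 0.82 (limma adjusted p = 0.0113 and 0.0192). Grap2, which encodes Gads, the link between Lat and Slp76, varied most within groups, at 4.86, 6.25 and 6.37 in Sf.Il2-/-, 4.86, 5.17 and 6.74 in Sf and 6.96 in B6. Its values span over 2-fold within each mutant group, and its differences of -1.13 ± 0.74 in Sf.Il2-/- v B6 and -1.37 ± 0.74 in Sf v B6 did not pass. With the replicate block both passed, at -1.98 (limma adjusted p = 0.03) and -2.22 (limma adjusted p = 0.0197), and without Sf 3 the second passed at -1.94 (limma adjusted p = 0.0296). The block sets B6 mainly against the mutant arrays numbered 1, which both read 4.86 here, the lowest of their groups. The general adaptors Grb2 and Nck1 differed by at most 0.26 in size from B6 in either mutant, with adjusted p of 0.589 or more.

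Among the enzymes and exchange factors below Lat, Rasgrp1, which activates Ras in response to diacylglycerol, had the largest difference. It read 10.36, 9.81 and 10.13 in Sf.Il2-/-, 9.91, 9.74 and 10.41 in Sf and 11.36 in B6. All 6 mutant arrays were below B6, while the mutant groups overlapped. The differences were -1.34 ± 0.32 in Sf v B6 (limma adjusted p = 0.0615), -1.26 ± 0.32 in Sf.Il2-/- v B6 (limma adjusted p = 0.0785) and 0.08 ± 0.23 in Sf.Il2-/- v Sf (limma adjusted p = 0.969). Its other 3 probe sets also lay below B6 in both mutants, by -0.86 to -1.38 in Sf.Il2-/- v B6, none past the threshold.

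Plcg1, the phospholipase C that makes diacylglycerol and the calcium-releasing messenger, read 9.87, 10.01 and 10.11 in Sf.Il2-/-, 9.45, 9.20 and 10.12 in Sf and 10.69 in B6. Vav1, an exchange factor that joins the Lat and Slp76 assembly, read 8.26, 8.02 and 8.67 in Sf.Il2-/-, 7.77, 7.71 and 8.63 in Sf and 8.97 in B6. In both, Sf 3 was close to the highest Sf.Il2-/- array and the other Sf arrays lay below all Sf.Il2-/- arrays. Sos1, the Ras exchange factor carried by Grb2, read 6.62, 6.64 and 6.55 in Sf.Il2-/-, 6.38, 5.86 and 6.40 in Sf and 7.26 in B6, with no overlap between groups. The differences in Sf v B6 were -1.10 for Plcg1, -0.94 for Vav1 and -1.04 for Sos1, none past the threshold, and Vav3, a relative of Vav1, differed by -0.35.

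On the NF-kappaB branch, Prkcq, which encodes protein kinase C theta, came nearest to a call in Sf v B6. It read 10.54, 10.22 and 10.63 in Sf.Il2-/-, 10.15, 9.82 and 10.34 in Sf and 11.34 in B6. All mutant arrays lay below B6 and the mutant groups overlapped. The difference was -1.24 ± 0.28 in Sf v B6 (limma adjusted p = 0.0507) and -0.88 ± 0.28 in Sf.Il2-/- v B6 (limma adjusted p = 0.143), and with the replicate block the first was -1.18 (limma adjusted p = 0.0222). Bcl10, the adaptor that links this kinase to NF-kappaB through Malt1, read 10.84, 10.68 and 10.27 in Sf.Il2-/-, 10.27, 10.25 and 10.28 in Sf and 10.28 in B6. It differed from B6 by -0.02 ± 0.26 in Sf, the smallest size of any member there. Malt1, the protease of the complex, differed by -0.52 in Sf.Il2-/- v B6 and by -0.39 in Sf v B6.

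Of the calcium branch, Nfatc1, Nfatc2 and Nfatc3 encode NFAT factors and Ppp3ca a catalytic subunit of calcineurin, the phosphatase that activates them. Nfatc1 read 9.49, 9.26 and 9.78 in Sf.Il2-/-, 9.30, 8.99 and 9.74 in Sf and 10.23 in B6 at its brightest probe set, with a difference of -0.89 ± 0.34 in Sf v B6 (limma adjusted p = 0.172). Its other tested probe sets pointed the other way, at 0.71, 0.27 and 0.45 in the same comparison, none past the threshold, so no direction holds for the gene as a whole. Nfatc3 differed by -0.80 and Nfatc2 by -0.53 in Sf v B6, and in Sf.Il2-/- v B6 by -0.56 and 0.04. Ppp3ca differed by 0.07 in Sf v B6 and by 0.02 in Sf.Il2-/- v B6.

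Of the 3 members with both kinds of role, Cd6, a surface receptor that tunes the response, read 10.85, 10.92 and 10.91 in Sf.Il2-/-, 9.95, 9.67 and 10.84 in Sf and 11.30 in B6. Sf 3 lay just below the Sf.Il2-/- arrays, and the other Sf arrays were lower still. The difference in Sf.Il2-/- v Sf was 0.74 ± 0.27 with Sf 3 (limma adjusted p = 0.506) and 1.09 without it (limma adjusted p = 0.00776). Ptprc, which encodes CD45, the phosphatase that keeps Src family kinases ready, stayed between 12.31 and 12.77 over all arrays. Themis, a regulator of receptor signalling in thymocytes, differed by 0.56 in Sf.Il2-/- v Sf and by -0.62 in Sf v B6, neither past the threshold.

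Among the negative regulators, Pag1 encodes the membrane adaptor that docks Csk near the receptor. At its brightest probe set it read 8.85, 8.26 and 8.63 in Sf.Il2-/-, 9.50, 9.17 and 9.52 in Sf and 10.50 in B6. The groups did not overlap, and Pag1 was the only member whose Sf.Il2-/- arrays all lay below all Sf arrays. It fell by 1.92 ± 0.31 in Sf.Il2-/- v B6 (log2, SE, n = 3 and 1; limma adjusted p = 0.0164), a 3.8-fold difference. Its differences in Sf v B6, -1.11 ± 0.31 (limma adjusted p = 0.094), and in Sf.Il2-/- v Sf, -0.82 ± 0.22 (limma adjusted p = 0.352), did not pass. The call stayed when each mutant array was left out in turn, with limma adjusted p from 0.00329 to 0.0422. The B6 array, on which this comparison rests, could not be left out.

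The fall of Pag1 passed the threshold at 1 of 4 probe sets. The others differed by -0.09, -0.53 and -0.31 in Sf.Il2-/- v B6, with limma adjusted p of 0.912, 0.494 and 0.637. The brightest of these read 6.46, 6.22 and 5.96 in Sf.Il2-/-, 6.76, 7.03 and 6.59 in Sf and 6.52 in B6. Its Sf.Il2-/- arrays thus also lay below B6 and below all Sf arrays, while in Sf it lay above B6. Another stayed between 5.04 and 5.20 in all arrays. With the mean of all 4 probe sets the difference was -0.71 (limma adjusted p = 0.168). Pag1 lies on the chromosome of Il2, as do Ptpn22, Vav3, Bcl10 and Ppp3ca, and by its strain name the Il2 allele came from 129P2 cells. Whether sequence carried along with that allele has a part in the Pag1 value was not tested.

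**Figure D3:**
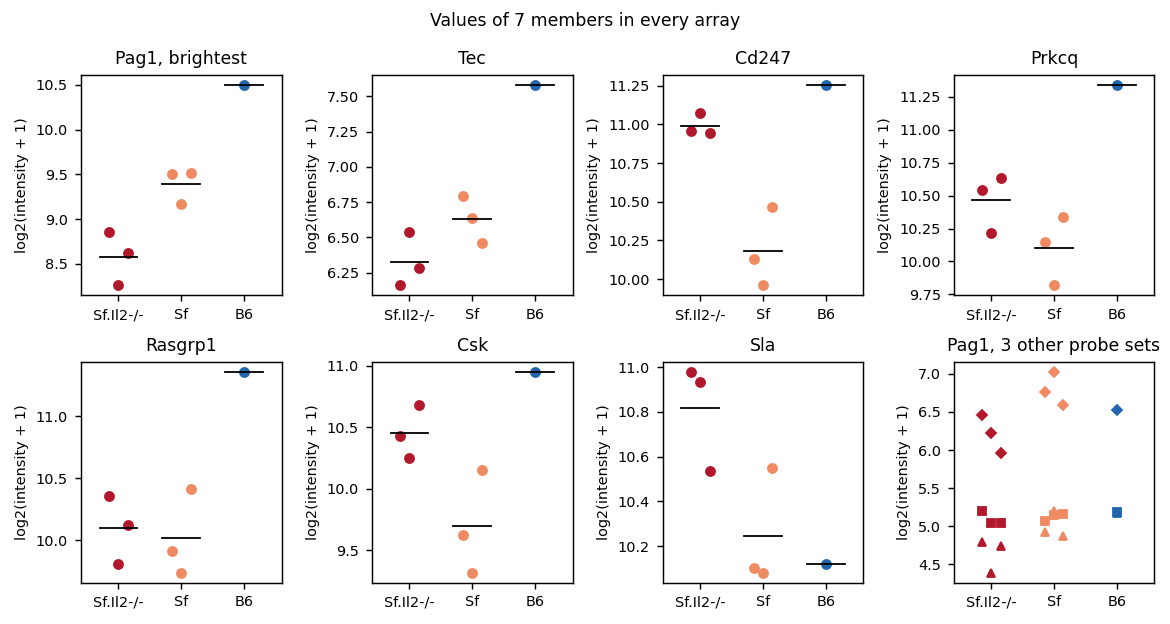
Log2(intensity + 1) of 7 members in every array (points, black bars at group means, Sf.Il2-/- left, Sf in the middle, B6 right as 1 array), each on an axis of its own that does not start at 0, and the 3 other probe sets of Pag1 (1 symbol each). Pag1 at its brightest probe set and Tec are lowest in Sf.Il2-/-, and Cd247 and Csk are lowest in Sf. The other Pag1 probe sets differ less from B6 in Sf.Il2-/-, with none past the threshold.

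Csk, the kinase that holds Lck and Fyn inactive, read 10.43, 10.25 and 10.68 in Sf.Il2-/-, 9.63, 9.32 and 10.15 in Sf and 10.95 in B6. Its groups did not overlap and stood in the order of those of Cd247, an activator. The difference was -1.25 ± 0.33 in Sf v B6 (limma adjusted p = 0.0804) and 0.76 ± 0.24 in Sf.Il2-/- v Sf (limma adjusted p = 0.425), and without Sf 3 -1.48 (limma adjusted p = 0.00441) and 0.98 (limma adjusted p = 0.0213). Ptpn6, which encodes the phosphatase SHP-1, read 9.65, 9.23 and 10.11 in Sf.Il2-/-, 9.35, 9.20 and 10.18 in Sf and 10.90 in B6. The mutant groups overlapped fully, at -1.24 ± 0.43 in Sf.Il2-/- v B6 and -1.33 ± 0.43 in Sf v B6 (limma adjusted p = 0.178 and 0.126), and with the replicate block both passed, at -1.36 (limma adjusted p = 0.0239) and -1.45 (limma adjusted p = 0.0171).

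Ptpn22, a phosphatase that acts on Lck and Zap70, read 10.80, 11.02 and 10.86 in Sf.Il2-/-, 10.10, 9.82 and 10.68 in Sf and 10.53 in B6. Every Sf.Il2-/- array was above B6 and above every Sf array, at 0.36 ± 0.31 in Sf.Il2-/- v B6 (limma adjusted p = 0.588) and 0.69 ± 0.22 in Sf.Il2-/- v Sf (limma adjusted p = 0.43). Ubash3a and Ubash3b encode related proteins that dampen receptor signals. Ubash3a differed from B6 by 0.17 in Sf.Il2-/- and by -0.11 in Sf, while Ubash3b differed by -0.62 and -0.78, none past the threshold.

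The Cbl proteins tag signalling proteins with ubiquitin. Cbl read 9.37, 9.19 and 9.13 in Sf.Il2-/-, 9.21, 8.82 and 9.58 in Sf and 10.46 in B6. All 6 mutant arrays lay well below B6 with overlapping mutant groups, at -1.23 ± 0.32 in Sf.Il2-/- v B6 (limma adjusted p = 0.0867) and -1.26 ± 0.32 in Sf v B6 (limma adjusted p = 0.0729). Cblb, whose product keeps T cells dependent on costimulation, differed by -0.70 and -0.63 in these comparisons. Sla and Sla2 encode Src-like adaptors that promote loss of receptor chains from the surface. Sla read 10.98, 10.93 and 10.54 in Sf.Il2-/-, 10.10, 10.08 and 10.55 in Sf and 10.12 in B6, the highest difference of any member in Sf.Il2-/- v B6 at 0.69 ± 0.28 (limma adjusted p = 0.23), which passed after quantile normalization at 0.93 (limma adjusted p = 0.0276). Its other 3 probe sets differed by 1.26, 0.52 and -0.58 in that comparison, none past the threshold, and Sla2 differed by 0.23.

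Dgka and Dgkz encode diacylglycerol kinases, which remove the messenger that Rasgrp1 and protein kinase C theta need. Dgka read 11.46, 11.29 and 11.44 in Sf.Il2-/-, 10.79, 10.58 and 11.47 in Sf and 12.21 in B6. Dgkz read 11.68, 11.28 and 11.64 in Sf.Il2-/-, 11.02, 10.63 and 11.44 in Sf and 12.10 in B6. All mutant arrays lay below B6 in both genes, and Sf 3 was close to the Sf.Il2-/- arrays, above all of them for Dgka. In Sf v B6 the differences were -1.26 ± 0.30 for Dgka and -1.07 ± 0.30 for Dgkz (limma adjusted p = 0.0624 and 0.0922), and Dgka passed after quantile normalization in Sf v B6 at -0.95 (limma adjusted p = 0.0195) and in Sf.Il2-/- v B6 at -0.90 (limma adjusted p = 0.0214).

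Activators and negative regulators were then set side by side by their counts and medians, with no test of either list. In Sf.Il2-/- v Sf the median difference was 0.40 for 26 activators and 0.36 for 12 negative regulators. In Sf v B6 it was -0.74 for activators and -0.92 for negative regulators, and in Sf.Il2-/- v B6 -0.29 and -0.59. The classes thus lay on the same side of 0 in each comparison. Negative regulators were the lower in all 3 with all 7 arrays, but in Sf.Il2-/- v Sf the order turned without Sf 3 (0.56 for activators and 0.60 for negative regulators) and without both mutant arrays numbered 3 (0.49 and 0.56). Quantile normalization lowered the medians in that comparison to 0.17 and 0.13, and with the mean of probe sets they were 0.33 and 0.17. Within an array the median difference from B6 was -0.47, -0.39 and -0.25 for activators and -0.64, -0.76 and -0.36 for negative regulators in Sf.Il2-/- 1, 2 and 3. In Sf 1, 2 and 3 it was -0.78, -0.996 and -0.42 for activators and -0.90, -1.16 and -0.69 for negative regulators. Negative regulators lay below activators in each of the 6 arrays, and both classes moved between Sf 2 and Sf 3 by more than they differed from each other in any array. In the further lists of pathway genes below, the order of the medians in Sf v B6 was the other way.

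The all-gene median also lay below B6 in every mutant array. It was -0.17, -0.19 and -0.08 from B6 in Sf.Il2-/- 1, 2 and 3, and -0.29, -0.41 and -0.10 in Sf 1, 2 and 3, and for the genes of like brightness -0.22, -0.28 and -0.20, and -0.57, -0.79 and -0.24. Both member classes lay further from B6 than these in each of the 6 arrays. Quantile normalization, which gives every array the same distribution, moved the all-gene median in Sf v B6 to 0.02, the activators to -0.19 and the negative regulators to -0.50, and then 28 of 41 members were below 0 in place of 39. In Sf.Il2-/- v B6 it gave -0.059 for activators and -0.35 for negative regulators, with 0.06 over all genes. After it 1 member passed in Sf v B6 (Dgka, lower), against 4.83% of all genes in either direction and 1.42% lower, and 5 in Sf.Il2-/- v B6 (Cbl, Dgka, Pag1 and Rasgrp1 lower, Sla higher), against 6.3% of all genes in either direction, 2.08% lower and 4.22% higher. None passed in Sf.Il2-/- v Sf, against 0.287% of all genes.

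**Figure D4:**
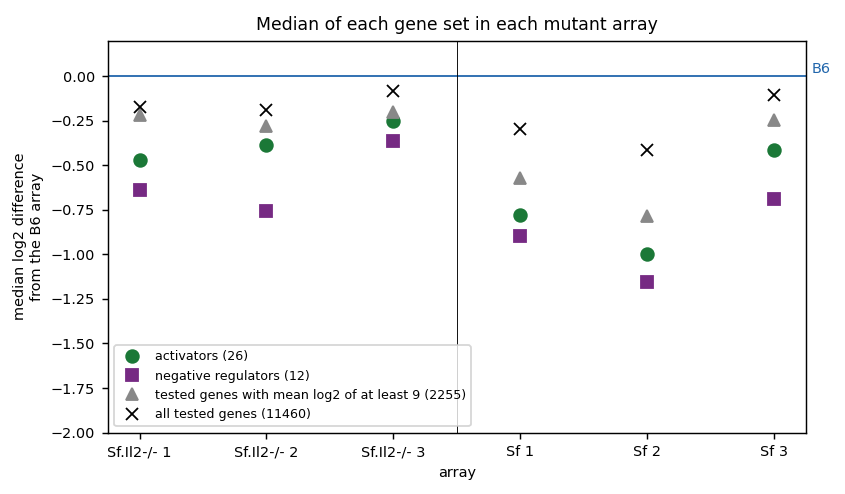
Median log2 difference from the B6 array (blue line at 0) in each of the 6 mutant arrays for 26 activators, 12 negative regulators, 2255 bright genes and all 11460 genes tested. Sf 2 is lowest in all 4 sets, at -1.16 for negative regulators and -0.41 for all genes, and negative regulators lie lowest in every array.

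**Figure D5:**
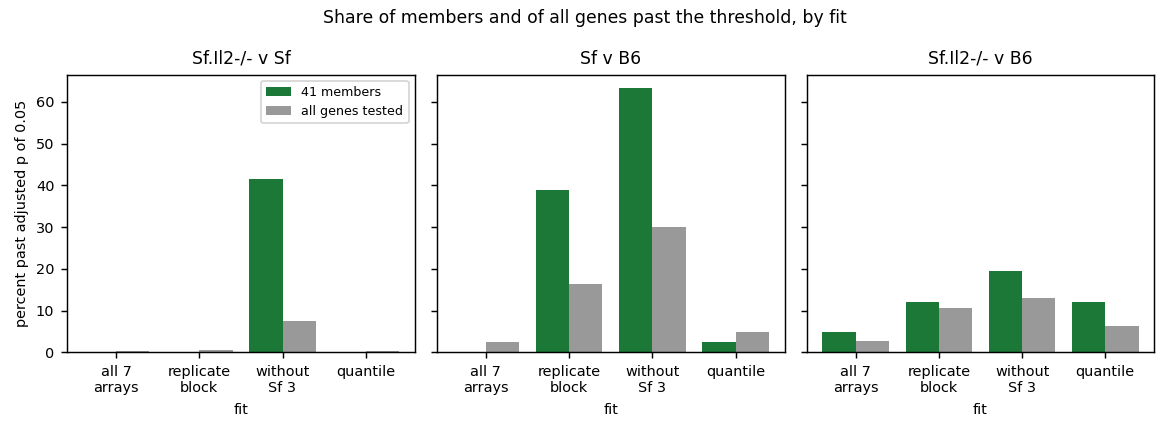
Percent of the 41 members (green) and of all genes tested (grey) past an adjusted p of 0.05 in the 3 comparisons, for the fit to all 7 arrays, with the replicate block, without Sf 3 and after quantile normalization. Bars for members reach 63.4% in Sf v B6 and 41.5% in Sf.Il2-/- v Sf when Sf 3 is left out, where the bars for all genes reach 30.0% and 7.43%. Of the 2255 tested genes with mean log2 of at least 9, not drawn, 56.2% and 22.0% passed there.

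Without Sf 3 the members past the threshold were of both classes. In Sf v B6 they were 18 of 26 activators, 6 of 12 negative regulators and 2 of 3 with both roles, all lower in Sf, and of the 2255 bright genes 53.0% were lower. In Sf.Il2-/- v Sf they were 9 of 26 activators, 6 of 12 negative regulators and 2 of 3 with both roles, all higher in Sf.Il2-/-, and of the bright genes 21.7% were higher. The cause of the distance of Sf 3 from Sf 1 and Sf 2 was not tested.

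Of the 41 members 31 have more than 1 probe set that names only the gene, and 55 further probe sets of them passed the filter on dim values. None of the 55 passed in any comparison, with lowest adjusted p of 0.294 in Sf.Il2-/- v Sf, 0.0781 in Sf v B6 and 0.0852 in Sf.Il2-/- v B6 by limma. These p are adjusted over all probe sets. The 55 had the sign of the member's brightest probe set in 37, 37 and 34 of 55 cases in these comparisons. The lowest p among them was that of a probe set of Ubash3b, at -1.82 in Sf v B6 and -1.76 in Sf.Il2-/- v B6, further from B6 than its brightest.

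Other genes of the pathway were taken from lists by role. Of 37 further positive components tested, 1 rose and 1 fell in Sf v B6, 1 rose and 2 fell in Sf.Il2-/- v B6, and none passed in Sf.Il2-/- v Sf, against 2.47%, 2.69% and 0.279% of all genes in these comparisons. Without Sf 3, 2 rose and 20 fell in Sf v B6, 1 rose and 6 fell in Sf.Il2-/- v B6, and 6 rose and 1 fell in Sf.Il2-/- v Sf, against 30.0%, 13.1% and 7.43% of all genes. Icos, a costimulatory receptor related to CD28, read 11.77, 11.41 and 11.44 in Sf.Il2-/-, 10.95, 10.75 and 11.42 in Sf and 9.62 in B6, and rose by 1.92 ± 0.28 in Sf.Il2-/- v B6 (limma adjusted p = 0.0108) and by 1.42 ± 0.28 in Sf v B6 (limma adjusted p = 0.032). Txk, a kinase of the family of Tec, read 8.31, 8.83 and 8.62 in Sf.Il2-/-, 8.41, 8.19 and 8.54 in Sf and 10.08 in B6, and fell in Sf.Il2-/- v B6, a 2.82-fold difference (limma adjusted p = 0.0378), and in Sf v B6, a 3.26-fold difference (limma adjusted p = 0.024). Both mutant groups lay on the same side of B6 in these genes, above it for Icos and below it for Txk. Itpr3, a calcium release channel of the endoplasmic reticulum, fell by 1.30 in Sf.Il2-/- v B6 (limma adjusted p = 0.0422), with -1.13 in Sf v B6 (limma adjusted p = 0.0632). The median of this list was 0.23 in Sf.Il2-/- v Sf, -0.59 in Sf v B6 and -0.27 in Sf.Il2-/- v B6.

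Of 28 further negative regulators tested, 1 rose in Sf v B6 and 1 fell in Sf.Il2-/- v B6, and none passed in Sf.Il2-/- v Sf, shares near the 2.47%, 2.69% and 0.279% of all genes. Without Sf 3, 1 rose and 8 fell in Sf v B6, 1 rose and 3 fell in Sf.Il2-/- v B6, and 1 rose in Sf.Il2-/- v Sf. In these comparisons 30.0%, 13.1% and 7.43% of all genes passed without Sf 3. Rnf128, which encodes the ubiquitin ligase GRAIL, known for its part in T cell anergy, read 5.94, 5.76 and 6.62 in Sf.Il2-/-, 7.38, 6.82 and 7.33 in Sf and 4.69 in B6. The groups did not overlap, with Sf highest. Rnf128 rose by 2.49 ± 0.38 in Sf v B6 (limma adjusted p = 0.014), with 1.42 ± 0.38 in Sf.Il2-/- v B6 (limma adjusted p = 0.0947) and -1.07 ± 0.27 in Sf.Il2-/- v Sf (limma adjusted p = 0.287). B6 read near the dim end, so the size of that rise is not exact. Rcan3, a calcineurin inhibitor, fell by 1.54 ± 0.30 in Sf.Il2-/- v B6 (limma adjusted p = 0.0341), with -1.36 in Sf v B6 (limma adjusted p = 0.0516). The median of this list was 0.06 in Sf.Il2-/- v Sf, -0.15 in Sf v B6 and -0.28 in Sf.Il2-/- v B6. The further positive components had 0.23, -0.59 and -0.27. In Sf v B6 the negative list thus lay above the positive one, unlike the member classes, and in Sf.Il2-/- v B6 the lists hardly differed.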

How the data were processed

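The deposited table holds the authors' intensity for 45037 probe sets in 7 arrays, on a linear scale. Per the submitters' processing notes GCRMA and GCOS were used, with versions, order and parameters not given in the sources used here. Values were taken as log2(intensity + 1). Symbols came from the array annotation (34945 probe sets naming 1 gene, 932 several, 9160 none) and were brought to current ones by Entrez number for 34741. For each gene the probe set of highest mean stood for it, and the 11460 of 18193 genes with a highest group mean of at least 5 were tested.

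The 3 group means were fitted over all 7 arrays with limma 3.58.1 in R 4.3.3 (eBayes with an intensity trend, 4 residual and 9.57 total degrees of freedom), with Benjamini-Hochberg adjustment over all genes. B6 has 1 array, assumed to vary like the mutants. No list was tested. In 10 simulated runs of Sf.Il2-/- v Sf with 11460 genes the fit recovered 30.9% of genes changed 2-fold and 79.5% of those changed 4-fold, with 3.7 false calls a run. Sf 3 stood apart from Sf 1 and Sf 2 for most genes, and whether these rates hold for such arrays was not tested. Figures used matplotlib 3.10.9 in Python 3.11.15.

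Members, classes and lists were chosen with earlier results of these data known. Every member is named, as are Il2, Foxp3 and Il2ra and the listed pathway genes past the threshold. Of 48 further positive and 32 further negative pathway genes 37 and 28 were tested, and the others are not analysed here. Marker genes were fixed by cell type. Of these Gzma, a granzyme gene also made by T cells, and Eomes passed in comparisons with B6, and the other markers did not. Replicate numbers come from the titles: deviations from the group means correlated at 0.301, 0.211 and 0.505 between same-numbered Sf and Sf.Il2-/- arrays, though 1 array correlated better with another number (0.333). Alternatives are given at the end.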

Additional observations from a re-analysis of the deposited data

How the results depend on the processing

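The single B6 array and the distance of Sf 3 from Sf 1 and Sf 2 limit all comparisons. The B6 array was kept wherever 1 replicate was left out. For the 41 members, leaving out 1 replicate gave 0 to 17 passing in Sf.Il2-/- v Sf (0 with all arrays), 0 to 26 in Sf v B6 (0) and 1 to 8 in Sf.Il2-/- v B6 (2), each highest without Sf 3; over all genes it gave 8 to 872 (32), 116 to 3523 (283) and 129 to 1541 (308). With both mutant arrays numbered 3 left out, chosen after seeing the data, 14, 29 and 13 members and 565, 5347 and 3393 genes passed. With the replicate block 0, 16 and 5 members and 60, 1880 and 1212 genes passed. Quantile normalization gave 1 and 5 members in the comparisons of Sf and Sf.Il2-/- with B6, 554 and 723 genes (391 higher and 163 lower, 484 higher and 239 lower, against 150 and 133, 171 and 137), and medians of -0.19 and -0.059 for activators and -0.50 and -0.35 for negative regulators. No filter gave 11, 161 and 138 genes, and 1 member in Sf.Il2-/- v B6. In that comparison 1 member also passed with a pseudocount of 16, arrays centred on their medians, no intensity trend, or the mean of probe sets, and 0 without both arrays with neutrophil transcripts. With the mean of probe sets the member that passed was not Pag1. In Sf v B6, 2 passed with a filter at 6 (Cd247 and Prkcq), 1 with arrays centred (Prkcq), and 188 genes with the mean of probe sets. No share of all genes stands beside most of these counts of 1 or 2 members. Nothing about the pathway is read from them. The activator median in Sf.Il2-/- v B6 was -0.18 with the mean of probe sets, -0.38 with the replicate block, -0.37 without both arrays numbered 3, and -0.25 to -0.37 without 1 replicate. Of 123 pairs of member and comparison, 42 had another sign under some alternative without passing in either fit, and no called difference changed sign. The cause of these changes was not tested.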
